A study of Mus musculus with 10 samples.

Results

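The 10 genes described here, Ttr, Enpp2, Kl, Folr1, Aqp1, Clic6, Kcnj13, Slc4a5, Otx2 and Calml4, are known for their high expression in the choroid plexus, and they were found by symbol among the 53379 genes counted in each library. They were selected on measured values of these same libraries, since Ttr took more counts than any other gene in every neutral library, so their high level in the neutral group is a description and not a finding. All 10 had enough counts to be tested, among 19754 tested genes.

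The choroid plexus is a sheet of epithelial cells around blood vessels that hangs into the brain ventricles, next to the hippocampus. Its cells secrete cerebrospinal fluid by moving ions and water from blood to ventricle, and they release carrier proteins and enzymes into that fluid. TTR, which carries thyroxine and binds the retinol carrier RBP4, is the best known of these proteins and is also made by the liver and the retinal pigment epithelium.

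The study tagged hippocampal cells that had been active during an experience, with a pair of viruses: c-Fos activity makes a transactivator, tTA, which turns on ChR2-EYFP unless doxycycline is given. Male mice were 5 weeks old, and cells with EYFP by the labels, nuclei in the results of the paper, were sorted for RNA-seq. The labels give 8 pooled animals for each condition, while the methods of the paper give 2 mice for mock, fewer than its 3 libraries. The aversive group (2 libraries) received 4 foot shocks of 2 s at 1.5 mA, and the appetitive group (2 libraries) met a female mouse in a clean home cage, for 1 h by the labels and 2 h by the methods of the paper. The neutral group (3 libraries) was placed in the conditioning cage with no stimulus, and the mock group (3 libraries) came from mice left in their home cage, which the paper also names an untagged control.

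By the labels, the neutral libraries were made with the SMART-Seq v4 Ultra Low Input kit from total RNA and read in pairs on a NovaSeq, whereas all others were made with SMARTerUltra-lowPOLYA-V4 from polyA RNA and read from a single end on a HiSeq, so kit and condition cannot be told apart in any comparison with the neutral group. Nor do the labels state whether replicate libraries were made from different mice, and p-values here measure the spread between libraries only. In bulk libraries such as these, fewer cells of a type and less RNA per cell cannot be told apart.

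Total counts were 29194873, 20505550 and 49880042 in mock libraries 1, 2 and 3, 27159427 and 39172609 in aversive libraries 1 and 3, and 26647573 and 16968588 in appetitive libraries 1 and 2. The neutral libraries held 60077131, 67650693 and 62741023 counts. A count was seen for 14144 and 14658 genes in the appetitive libraries, the fewest of the series, and for 16849 to 30899 genes in the others. Levels are given as CPM, counts per 1000000 of the library's total after TMM scaling, and 3 counts, the smallest level taken as detectable, correspond to 0.0347 to 0.235 CPM. PCR copies cannot be recognised in these counts, so such floors and the intervals below cover counting error only.

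The sorted cells of the labels were set against cell type markers. The 10 neuron markers summed to 337, 234 and 213 CPM in mock, 848 and 576 CPM in aversive, 1244 and 184 CPM in appetitive and 83.2, 86.9 and 78.2 CPM in neutral libraries, with Snap25, a synaptic vesicle fusion protein, as the most abundant. Gad1 and Gad2, which make GABA, were both at 0 in appetitive 1, appetitive 2 and neutral 1. The 8 oligodendrocyte markers, led by the myelin gene Mbp, summed to 364786, 293476 and 48983 CPM in mock, 408440 and 24649 CPM in aversive, 802037 and 82770 CPM in appetitive and 23738, 33761 and 7310 CPM in neutral libraries. Neuron markers were thus lowest in the neutral libraries, and in CPM oligodendrocyte markers differed within the aversive group and within the appetitive group by around an order of magnitude. TMM factors were 0.480 and 1.13 in appetitive 1 and appetitive 2, and 0.736 and 1.28 in aversive 1 and aversive 3. A lower factor raises CPM, so these sums are not shares of counts and part of these differences comes from scaling. Mbp took 30.8% of the counts of appetitive 1. Mbp had the most counts of any gene in all mock libraries, aversive 1 and appetitive 1, and mt-Rnr2 did in aversive 3.

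Ttr (ENSMUSG00000061808) lies on the plus strand of chromosome 18, from 20665280 to 20674321 in GRCm38, and no other annotated gene overlaps it. It received 8168266, 1794827 and 7285409 counts in neutral libraries 1, 2 and 3, against 26784, 20590 and 228355 in mock, 263765 and 338961 in aversive and 10840 and 55307 in appetitive libraries. As a share of all counts this was 13.6%, 2.65% and 11.6% in neutral, 0.0917%, 0.1004% and 0.458% in mock, 0.971% and 0.865% in aversive and 0.0407% and 0.326% in appetitive libraries, with Wilson 95% intervals at most 0.0173 percentage points wide. Every neutral library thus lay above every other library, and both aversive libraries lay above every mock and appetitive library. Neutral 2 stood apart from its group, with a share closer to the aversive libraries than to neutral 1 or neutral 3. The gene next after Ttr was the mitochondrial mt-Cytb in neutral 1 and Enpp2 in neutral 3.

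**Figure D1:**
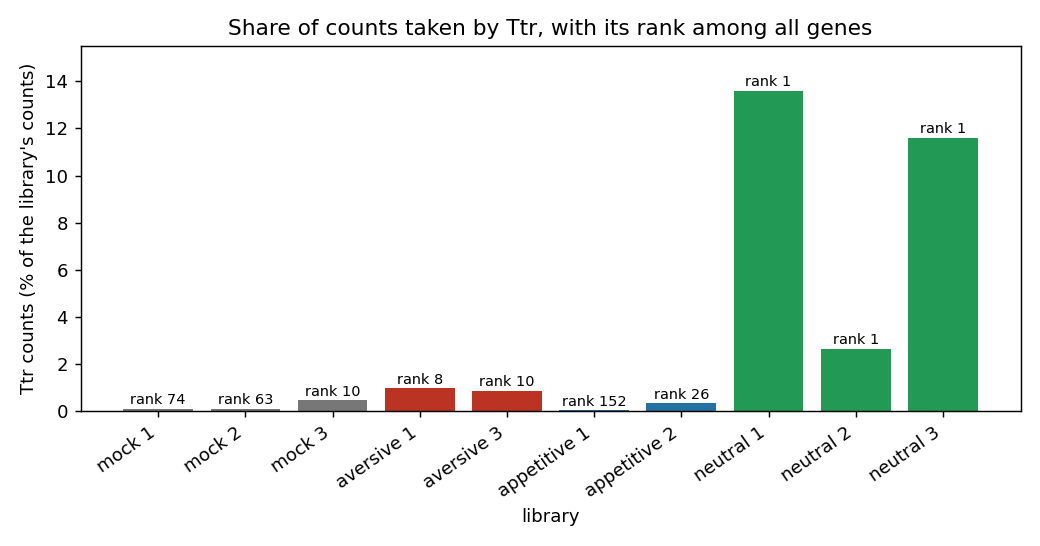
Bars give the counts of Ttr as a percentage of all counts of each of the 10 libraries, with the rank of Ttr among all genes above each bar. Ttr ranks 1 in the 3 neutral libraries, at 13.6%, 2.65% and 11.6%, ranks 8 and 10 in the aversive libraries, and ranks between 10 and 152 in the mock and appetitive libraries.

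On the normalised scale Ttr reached 1066, 1072 and 3156 CPM in mock, 13199.5 and 6793 CPM in aversive, 848 and 2897 CPM in appetitive and 128856, 20730.2 and 93600.9 CPM in neutral libraries. Mock 3 held about as much Ttr as appetitive 2 and the rest of those groups held less, so mock and appetitive overlapped. Group means were 1765 ± 1205 CPM in mock (SD, n = 3), 9996 ± 4530 CPM in aversive (SD, n = 2), 1872 ± 1449 CPM in appetitive (SD, n = 2) and 81062.5 ± 55142.8 CPM in neutral libraries (SD, n = 3).

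Enpp2 (ENSMUSG00000022425, chromosome 15, 54838901 to 54952892, minus strand) encodes autotaxin, a secreted enzyme that makes lysophosphatidic acid and that is found in choroid plexus and also in oligodendrocytes. Its level was 1493, 1487 and 3718 CPM in mock, 6721 and 2545 CPM in aversive, 1086 and 5131 CPM in appetitive and 13719.8, 9133 and 14759 CPM in neutral libraries. The 3 neutral libraries were highest and near each other, and the other groups overlapped. Enpp2 took the most counts of the 10 genes in all mock and appetitive libraries, whereas Ttr did in all aversive and neutral libraries. For every 1000 counts of Ttr there were 1400, 1387 and 1178 counts of Enpp2 in mock, 509 and 375 in aversive, 1282 and 1771 in appetitive and 106, 441 and 158 in neutral libraries, so this ratio did not overlap between mock and aversive libraries.

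Kl (ENSMUSG00000058488, chromosome 5, 150952607 to 150993817, plus strand) encodes klotho, a membrane protein with a shed form that acts as a co-receptor for FGF23. It was counted at 31.9, 14.5 and 150.7 CPM in mock, 149.6 and 158.8 CPM in aversive, 0.156 and 12.5 CPM in appetitive and 394.8, 156.7 and 324.1 CPM in neutral libraries. Kl was lowest in both appetitive libraries, where it had 2 and 239 counts, and mock 3 and neutral 2 lay at the level of the aversive libraries.

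The next genes move molecules across the epithelium. Folr1 (ENSMUSG00000001827, chromosome 7, 101858331 to 101870788, minus strand) encodes the folate receptor that carries folate into the cerebrospinal fluid. It stood at 14.5, 17.6 and 54.5 CPM in mock, 111.3 and 42.2 CPM in aversive, 0.156 and 5.55 CPM in appetitive and 510.6, 114.5 and 521.1 CPM in neutral libraries. Appetitive libraries were lowest, with 2 and 106 counts, neutral libraries were highest, and mock and aversive libraries overlapped.

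Aqp1 (ENSMUSG00000004655, chromosome 6, 55336432 to 55348555, plus strand) encodes the water channel of the apical membrane. Its level was 1.59, 0.469 and 11.6 CPM in mock and 90.9, 26.6 and 106.02 CPM in neutral libraries, and its counts were 1 and 16 in aversive and 2 and 1 in appetitive libraries. Aqp1 is thus the member with the lowest counts outside the neutral group, and every aversive and appetitive library lay below every mock library.

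Clic6 (ENSMUSG00000022949, chromosome 16, 92485736 to 92541243, plus strand) belongs to the chloride intracellular channel family. Its level was 21.7, 3.96 and 109.3 CPM in mock, 238.2 and 15.3 CPM in aversive and 647.4, 95.96 and 571.7 CPM in neutral libraries, and its counts were 10 and 0 in the appetitive libraries. Mock, aversive and neutral libraries overlapped, with mock 3 and aversive 1 above neutral 2, and the appetitive libraries lay below all others.

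Kcnj13 (ENSMUSG00000079436, chromosome 1, 87386363 to 87394729, minus strand) encodes the potassium channel Kir7.1 of the apical membrane. It reached 10.6, 12.8 and 45.5 CPM in mock, 206.2 and 50.8 CPM in aversive, 0.0782 and 27.9 CPM in appetitive and 2780.4, 676.4 and 2265 CPM in neutral libraries. Both aversive libraries were above all mock libraries, and the appetitive libraries were unlike each other, with 1 count in appetitive 1 and 533 in appetitive 2.

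Slc4a5 (ENSMUSG00000068323, chromosome 6, 83219828 to 83304945, plus strand) encodes a sodium bicarbonate cotransporter that helps to set the pH of the fluid. It was at 2.95, 0.469 and 17.7 CPM in mock, 2.85 and 0.441 CPM in aversive, 0 and 67.6 CPM in appetitive and 173.4, 8.17 and 107.1 CPM in neutral libraries. Slc4a5 was the member with the least order by group: appetitive 2, with 1290 counts, lay above neutral 2, while appetitive 1 had no count.

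Otx2 (ENSMUSG00000021848, chromosome 14, 48657677 to 48673819, minus strand) is the only transcription factor among the 10, a homeodomain protein that choroid plexus development needs. Its level was 7.45, 3.59 and 21.2 CPM in mock and 368.2, 41.6 and 186.7 CPM in neutral libraries, and it had 0 and 1242 counts in aversive and 0 and 1 counts in appetitive libraries. Otx2 was thus found in every mock and neutral library, in 1 of 2 aversive libraries, and as a single read in the appetitive group.

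Calml4 (ENSMUSG00000032246, chromosome 9, 62858080 to 62875921, plus strand) encodes a calmodulin-like protein of microvilli. It was at 11.4, 9.64 and 29.8 CPM in mock, 43.5 and 25.6 CPM in aversive and 580.8, 98.6 and 459.1 CPM in neutral libraries, and had 0 counts in both appetitive libraries. Mock and aversive libraries overlapped, neutral libraries lay above them, and for every 1000 counts of Ttr the level was 8.98 to 10.7 counts in mock, 3.30 and 3.77 in aversive and 4.51 to 4.90 in neutral libraries.

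**Figure D2:**
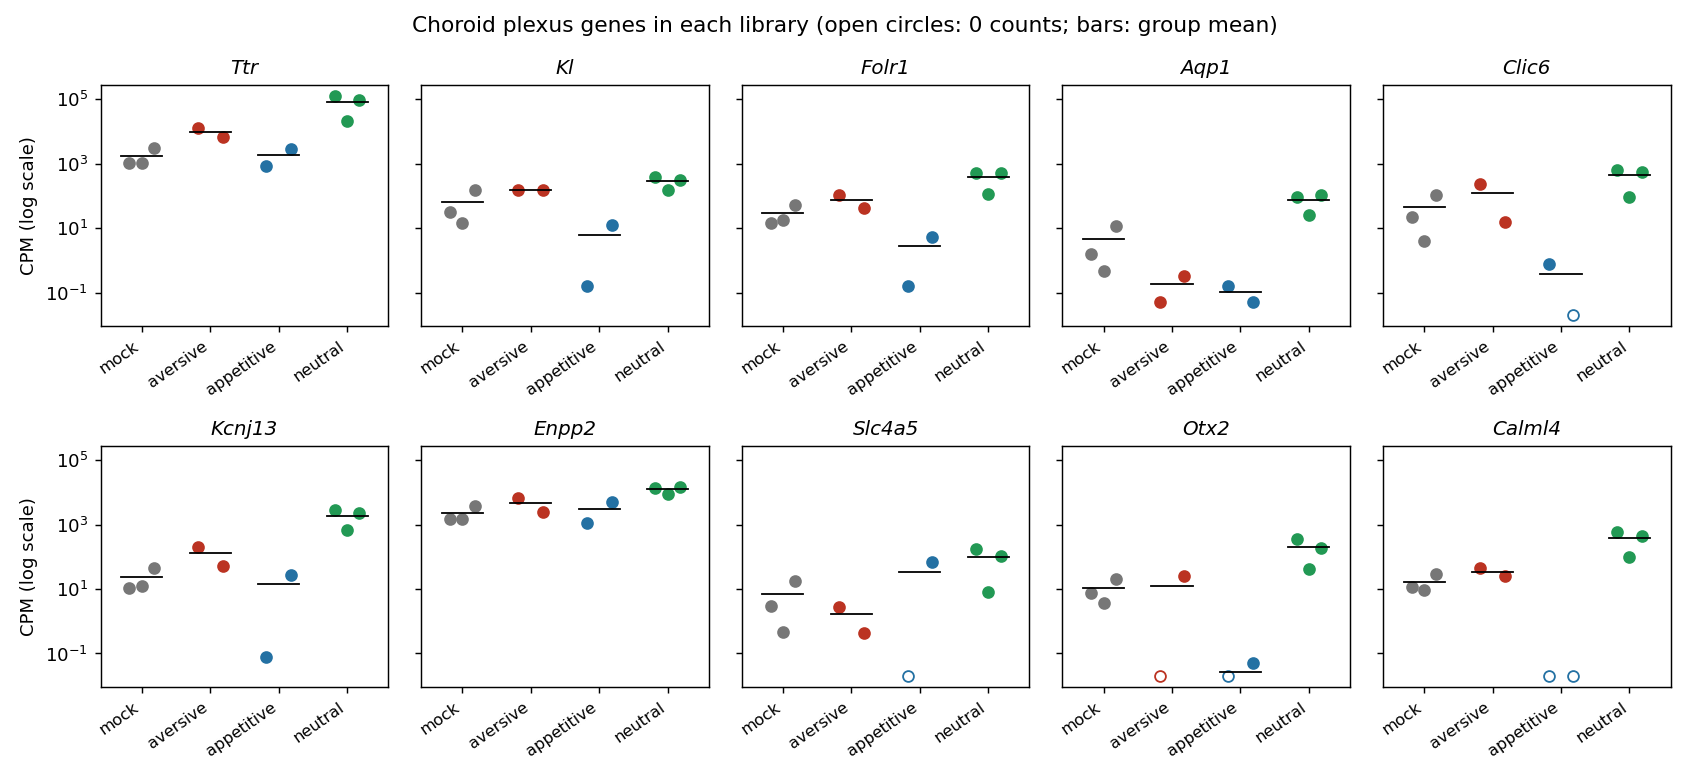
Each panel gives 1 gene, with the level of each library in CPM on a log scale against its group. Filled points are libraries, open points at the foot of a panel are libraries with 0 counts, which a log scale cannot place, and bars are group means, and the neutral points of Ttr lie at 128856, 20730.2 and 93600.9 CPM.

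Reads were counted without regard to strand, so reads from exons shared by genes on both strands cannot be told apart. Overlaps are given here between whole genes, and overlap between their exons was not tested. Kcnj13 lies within Gigyf2, which is read from the other strand, and Folr1, Clic6, Enpp2, Otx2 and Calml4 each overlap at least 1 annotated gene. Among these, Otx2 shares its place with Otx2os1, a noncoding gene on the other strand. Ttr, Kl, Aqp1 and Slc4a5 overlap no other annotated gene.

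To order the members, levels were divided by exon length. In the neutral libraries Ttr led with 68349.5 ± 46494.7 CPM per kb (SD, n = 3), before Enpp2 with 2169 ± 518 and Kcnj13 with 1502 ± 864 CPM per kb. Folr1, Clic6 and Calml4 followed with 166.3 ± 100.9, 112.0 ± 76.4 and 104.2 ± 68.8 CPM per kb, and Otx2, Kl, Aqp1 and Slc4a5 with 47.1 ± 38.8, 31.3 ± 13.1, 28.4 ± 16.1 and 16.6 ± 14.3 CPM per kb. Ttr stood above Enpp2, and Kcnj13 above Folr1, by more than the larger SD of the pair. Means of Enpp2 and Kcnj13, and of all neighbours from Folr1 down to Slc4a5, lay within the spread between libraries. Within each neutral library, however, Enpp2 lay above Kcnj13, Folr1 above Clic6, Calml4 above Otx2 and Aqp1 above Slc4a5. The order of Clic6 and Calml4, and that of Otx2 and Kl, turned in neutral 2. That of Kl and Aqp1 turned in neutral 3.

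The same genes led in the other groups. Mock 3 was the highest mock library, and neutral 2 the lowest neutral library, in all 10 genes. Ttr, Enpp2 and Kcnj13 were the first 3 in mock libraries, at 1488, 386 and 18.1 CPM per kb, in aversive libraries, at 8428 ± 3820, 802 and 101.2 CPM per kb, and in appetitive libraries, at 1579, 538 and 11.02 CPM per kb. Aqp1 or Slc4a5 came last in mock, aversive and neutral libraries, and Calml4, with no count, came last in appetitive libraries. Among groups with a count in every library, the members were most even in Kl in the aversive libraries, whose higher value was 1.06 times the lower, and least even in Kcnj13 in the appetitive libraries, 357 times. With a library at 0, Slc4a5 had 0 and 1290 counts in the appetitive and Otx2 0 and 1242 in the aversive libraries.

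Neutral libraries were compared with mock libraries to describe what the pools from the conditioning cage held beyond home cage pools. Since this level chose the members, no test is given. Ttr was higher by a log2 fold change of 5.52 ± 0.87 (SE, n = 3 and 3), Kcnj13 by 6.37 ± 1.58 and Enpp2 by 2.49 ± 0.68, and the other values ran from 2.15 ± 1.21 in Kl to 4.48 ± 0.91 in Calml4. Without mock 3 all 10 values are higher, with Ttr at 6.22, Kcnj13 at 7.32, Folr1 at 4.55, Otx2 at 5.14 and Calml4 at 5.14, and Kl moves from 2.15 to 3.63, Aqp1 from 4.03 to 6.14, Slc4a5 from 3.77 to 5.79 and Clic6 from 3.28 to 5.07. Without mock 2 Aqp1 is at 3.41, Slc4a5 at 3.11 and Clic6 at 2.64, and without neutral 1 Slc4a5 is at 3.02 and Otx2 at 3.40. Every neutral library lay above every mock library in 8 of the 10 genes, all but Clic6 and Slc4a5. Among all tested genes 0.0861% were called at an adjusted p under 0.05 and 16% had all neutral libraries above all mock libraries. The median log2 fold change was 3.90 over the members and 0.08 over all tested genes.

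On all 10 libraries, the neutral libraries were nearer to the aversive than to the mock libraries in all members but Aqp1 and Slc4a5. This order turned in Clic6 without aversive 1, with a log2 fold change of 4.81 over aversive and 3.19 over mock libraries. It turned in Otx2 without aversive 3, with a bound of 1324-fold over aversive and a log2 fold change of 4.19 over mock libraries. Over aversive libraries, Ttr was higher by a log2 fold change of 3.02 ± 0.91 (SE, n = 3 and 2). Enpp2 was higher by 1.44 ± 0.75, Kl by 0.92 ± 1.33 and Aqp1 by 8.58 ± 2.10. Aversive 1 and aversive 3 had 1 and 16 counts of Aqp1, and without aversive 1 its value is 7.82, with Enpp2 at 2.28, while without aversive 3 its ratio of pooled counts is 1432. In 8 of the 10 genes every neutral library lay above both aversive libraries, and Kl and Clic6 overlapped. In this comparison 0.0405% of all tested genes were called and 19.3% had every neutral library above every aversive library. Medians were 3.24 over the members and 0.15 over all tested genes.

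On all 10 libraries, neutral libraries were farthest from appetitive libraries in all members but Ttr and Enpp2, where mock was farthest, and Slc4a5, where aversive was. With library totals alone Ttr is at 5.42 over mock and 5.66 over appetitive libraries. Without appetitive 2 the exceptions turned. Ttr is then at 6.64 over appetitive and 5.41 over mock libraries, and Enpp2 at 3.60 and 2.39. Slc4a5 then has a bound of 410-fold over appetitive libraries, against a log2 fold change of 5.88 over aversive libraries on all 10. Without appetitive 1 Kcnj13 is at 6.18 over appetitive and 6.27 over mock libraries. The log2 fold change of neutral over appetitive libraries was 5.44 ± 1.04 in Ttr (SE, n = 3 and 2), 7.05 ± 1.65 in Folr1, 10.18 ± 2.50 in Clic6 and 2.01 ± 0.77 in Enpp2. With appetitive 1 alone Ttr is at 6.64, Enpp2 at 3.60 and Clic6 at 9.19, and Folr1, with 2 counts there, has a ratio of pooled counts of 2325. With appetitive 2 alone Folr1 is at 6.19 and Enpp2 at 1.38, and Clic6, then at 0, has a bound of 2789.7. Calml4, at 0 in the appetitive group, was at least 1938-fold higher in the neutral group when 3 counts in each appetitive library are taken as the limit. Every neutral library lay above both appetitive libraries in 9 of the 10 genes, with Slc4a5 as the exception, and 6.17% of all tested genes were called and 27.2% had that order. Medians were 7.07 over the members and 0.91 over all tested genes, both the highest of the 3 comparisons with neutral libraries.

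The comparisons among mock, aversive and appetitive libraries used the same kit and were tested with edgeR over all 19754 genes, for members chosen when earlier results of these data were known. The filter, scaling and spread of the fit also drew on the 3 neutral libraries of the other kit. In a fit of the 7 libraries of 1 kit, 0 members and 0 genes were called in each of these comparisons. Aversive against mock asks what the foot shock pools held beyond home cage pools. Ttr was at 13199.5 and 6793 CPM in aversive libraries against at most 3156 CPM in mock, a log2 fold change of 2.50 ± 0.80 (SE, n = 2 and 3) with an adjusted p = 0.473. Kcnj13 had the same order, with 2.48 ± 1.40 and an adjusted p = 0.540, and in Aqp1 both aversive libraries, with 1 and 16 counts, lay below all mock libraries, with -4.54 ± 1.73 and an adjusted p = 0.473. Without mock 3, which holds 837 of the mock counts of Aqp1, the values are 3.24 in Ttr, 3.47 in Kcnj13 and -2.37 in Aqp1, and without aversive 1 they are 1.87, 1.08 and -3.87. Without aversive 3 Kcnj13 is at 3.15 and the ratio of pooled counts of Aqp1 is 152, higher in mock libraries. The remaining 7 genes overlapped between the groups. The 2 of 10 members with both aversive libraries above all mock libraries stand against 11.4% of all tested genes, and the 1 of 10 with both below against 24.7%.

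None of the 10 genes was called by edgeR in this comparison (0 of 10), and 0% of all tested genes were. At an unadjusted p under 0.05 there were 1968 genes, among them 2 members, Ttr and Aqp1. DESeq2 on the same 10 libraries was run on all 53379 genes and called 1485 of them, with 1 member, Aqp1. The adjusted p of Aqp1 was 0.0431 there and ran up to 0.802 over 13 alternatives (DESeq2, a block, the 7 libraries of 1 kit, and each library left out). The adjusted p of the members ran from 0.473 to 0.979, 8 of 10 log2 fold changes were above 0, and their median was 1.14 against -0.13 over all tested genes. With library totals alone for scaling the all-gene median was -0.28, and with DESeq2's size factors -0.00, and no member changed its sign.

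Other cells' markers also differed between these libraries. The 14 ependymal markers, genes of the ciliated cells that line the ventricles and border the choroid plexus, summed to 39.1, 122.3 and 232.8 CPM in mock and 164.8 and 640.6 CPM in aversive libraries. Their most abundant gene over all libraries was Rsph1, a cilium gene, at 6.45, 13.7 and 27.3 CPM in mock and 26.1 and 134.7 CPM in aversive libraries. Aversive 1 had 4 of these 14 markers at 0 (Pifo, Enkur, Dnah5 and Dnah11), and fewer genes of any kind with a count than aversive 3, 16849 against 24189. Mitochondrial genes took 3.98%, 4.63% and 2.75% of counts in mock and 7.46% and 14.9% in aversive libraries. The part of these in the members' values was not tested.

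Appetitive against mock asks the same of the pools that met a female. Calml4 fell: its 287, 185 and 2159 counts in mock libraries stand against 0 in both appetitive libraries, a level at least 86.6-fold lower (53.8-fold without mock 3), with an adjusted p = 0.0317, below in 2 of 2 libraries. Kl, Folr1, Aqp1, Clic6 and Otx2 also lay below every mock library in both appetitive libraries without being called. Ttr did not share this order, at 848 and 2897 CPM in appetitive against 1066 to 3156 CPM in mock libraries, a log2 fold change of 0.09 ± 0.80 (SE, n = 2 and 3) with an adjusted p = 0.958, whose sign turned when only library totals were used for scaling and which is 0.83 without mock 3 and -1.23 without appetitive 2. Enpp2 was like Ttr, at 0.48 ± 0.71 with an adjusted p = 0.688, and Kcnj13 and Slc4a5 overlapped between the groups. Without appetitive 2, Enpp2 is left with the 1086 CPM of appetitive 1, below the 1487 to 3718 CPM of mock libraries.

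Of the 10 members 1 was called, and 1.98% of all 19754 tested genes were, 4 higher and 387 lower in appetitive libraries. The 6 of 10 members with both appetitive libraries below all mock libraries stand against 38.9% of all tested genes with that order. For the members with 1 to 3 counts the ratio of pooled counts is given: Aqp1 was 80.7 times higher in mock than in appetitive libraries (exact 95% counting interval 27.5 to 392.0), and Otx2 489 times (87.7 to 19329). Without mock 3, which holds 837 and 1534 of their mock counts, these ratios are 11.8 and 184. Without appetitive 1 they are 145 and 293, and without appetitive 2 Aqp1 is at 48.6 and Otx2 at a bound of 45.8. Folr1 had a log2 fold change of -3.33 ± 1.36, Kl of -3.37 ± 1.51 and Clic6 of -6.90 ± 2.19. Without mock 3 these are -2.46, -1.85 and -5.06, and without appetitive 1, which holds all 10 appetitive counts of Clic6, Clic6 has a bound of 286. The median over the members was -3.35 and over all tested genes -1.45, and the latter was -1.17 with DESeq2's size factors and -1.93 with library totals alone.

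The call of Calml4 depended on the libraries and the tool. Over 13 alternatives its adjusted p ran from 9.15e-07 with DESeq2 to 0.125 in a fit of the 7 libraries of 1 kit, and it was called in 5, of which 2 leave the appetitive group with a lone library, assumed to vary like the other groups. Without mock 1, mock 2, mock 3, neutral 1, neutral 2 or neutral 3, edgeR called 0 members and 0 genes, with at least 624 genes at an unadjusted p under 0.05 in each alternative that called none, while DESeq2 on all 10 libraries called 4 members (Aqp1, Clic6, Otx2 and Calml4) and 4813 genes. Without aversive 1, aversive 3, appetitive 1 or appetitive 2, edgeR called 2, 2, 1 and 4 members and 1800, 1764, 635 and 1426 genes. Calml4 was among them each time, with Otx2 without aversive 1 (adjusted p = 0.0233) and without aversive 3 (adjusted p = 0.0264). Without appetitive 2 the others were Kl, Folr1 and Kcnj13 (adjusted p = 0.0310, adjusted p = 0.0348 and adjusted p = 0.0361), whose 2, 2 and 1 counts in appetitive 1 give ratios of pooled counts of 657, 254 and 417.

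Appetitive against aversive compares the pools tagged with the female and with the foot shocks. Calml4 fell again, from 870 and 1278 counts in aversive libraries to 0 in both appetitive libraries, at least 177-fold, with an adjusted p = 0.0241, below in 2 of 2 libraries. Ttr was at 848 and 2897 CPM in appetitive and at 13199.5 and 6793 CPM in aversive libraries, with no overlap, a log2 fold change of -2.42 ± 0.93 (SE, n = 2 and 2) and an adjusted p = 0.192. Kl (-4.60 ± 1.65), Folr1 (-4.74 ± 1.50), Clic6 (-8.39 ± 2.37) and Kcnj13 (-3.20 ± 1.67) also had both appetitive libraries below both aversive libraries and were not called. Aversive 1 holds the higher aversive level of Kcnj13 and Folr1, at 206.2 and 111.3 CPM against 50.8 and 42.2 CPM in aversive 3. Clic6 has a bound of 806.6 without appetitive 1 and is at -5.44 without aversive 1, and Ttr is at -3.70 without appetitive 2. Otx2 was 567 times higher in aversive than in appetitive libraries by pooled counts (102 to 22397), all of it from aversive 3, and Aqp1 2.59 times (0.748 to 13.8). Without appetitive 1 these are 339 and 4.64, without appetitive 2 Otx2 has a bound of 53.0 and Aqp1 a ratio of 1.56, and without aversive 3 Aqp1 is at 0.532.

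Here too 1 of 10 members was called, beside 1.8% of all tested genes, 23 higher and 333 lower in appetitive libraries. The 6 of 10 members with both appetitive libraries below both aversive libraries stand against 20.1% of all tested genes. Slc4a5 was the only member with a log2 fold change above 0, at 4.37 ± 2.60 with an adjusted p = 0.381, and it rested on the 1290 counts of appetitive 2. The median was -3.90 over the members and -0.48 over all tested genes, the latter -0.34 with DESeq2's size factors and -0.88 with library totals alone. This comparison and the one with mock share the appetitive libraries.

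The adjusted p of Calml4 in this comparison ran from 6.79e-08 with DESeq2 to 0.138 in the fit of the 7 libraries of 1 kit, and the gene was called in 6 of 13 alternatives. In 4 of these 6 a group is left with a lone library, assumed to vary like the other groups. Without mock 1, mock 2, mock 3, neutral 1 or neutral 3, edgeR called 0 members and 0 genes, with at least 534 genes at an unadjusted p under 0.05 in each alternative that called none, while DESeq2 on all 10 libraries called 5 members (Kl, Folr1, Clic6, Otx2 and Calml4) and 3996 genes. Without neutral 2, aversive 1, aversive 3, appetitive 1 or appetitive 2, edgeR called 1, 2, 1, 1 and 4 members and 84, 953, 807, 771 and 1460 genes. Calml4 was among them each time, with Otx2 (adjusted p = 0.0309) without aversive 1. Without appetitive 2 the others were Kl, Folr1 and Kcnj13 (adjusted p = 0.0222, adjusted p = 0.0236 and adjusted p = 0.0204), with ratios of pooled counts of 999, 396 and 1218, so the values of these 3 genes above rest on that library.

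Other choroid plexus genes, listed by what they do, were read off the same fits. The 12 other secreted or matrix genes summed to 6563, 5692 and 6379 CPM in mock, 10583 and 6717 CPM in aversive, 7392 and 3061 CPM in appetitive and 17093, 3645 and 12928 CPM in neutral libraries. Most of this outside the neutral group was Cst3, a protease inhibitor that many brain cells make, at 6214, 5465 and 5967 CPM in mock libraries. Per exon length the highest in the neutral libraries were Cst3 with 2028 ± 763, Igfbp2, which binds insulin-like growth factors, with 1527 ± 1036 and Col9a3, a collagen chain, with 1037 ± 810 CPM per kb (SD, n = 3). Cst3 differed from the members in having all 3 neutral libraries, at 3269, 1465 and 2968 CPM, below all mock libraries, whereas Igfbp2 reached 4323, 665 and 3471 CPM in neutral and at most 197.5 CPM in mock libraries.

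Among these 12 genes edgeR called 0 between aversive and mock libraries (1 at an unadjusted p under 0.05, and 1 by DESeq2, beside 1968 and 1485 of all genes), 1 was lower in appetitive than in mock and 2 were lower in appetitive than in aversive libraries, beside 1.98% and 1.8% of all tested genes called. DESeq2 called 4 and 5 of the 12 in these comparisons, beside 4813 and 3996 of all genes, and 4 and 6 had an unadjusted p under 0.05 in edgeR, beside 4696 and 3941. Here and below, counts of all genes are out of 53379 for DESeq2 and out of 19754 for edgeR. F5, which encodes coagulation factor V, had 165, 242 and 4977 counts in mock, 398 and 361 in aversive and 0 in both appetitive libraries, at least 149.7-fold lower than in mock (adjusted p = 0.0337) and at least 69.3-fold lower than in aversive libraries (adjusted p = 0.0378). These bounds are 48.9 without mock 3 and 36.9 without aversive 1. Wfdc2, a small secreted protein, had 267 and 926 counts in aversive and 0 in both appetitive libraries, at least 81.5-fold lower (adjusted p = 0.0375). With mock 1, mock 2, mock 3, neutral 1 or neutral 3 left out, with the 7 libraries of 1 kit and, against mock, with neutral 2 left out, edgeR called 0 genes, so these calls are lost there. The median log2 fold change of the list was 0.85, -1.43 and -2.36 for aversive against mock, appetitive against mock and appetitive against aversive.

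The 27 other transport genes summed to 2637, 2798 and 2845 CPM in mock, 3591 and 3715 CPM in aversive, 3970 and 10649 CPM in appetitive and 10697, 5876 and 9020.5 CPM in neutral libraries. Car2, a carbonic anhydrase also made by oligodendrocytes, was their most abundant gene, with 9244 CPM in appetitive 2. Per exon length Car2 led in neutral libraries with 694 ± 305, before Car14, a carbonic anhydrase on the cell surface, with 266 ± 111 and Kcne2, a potassium channel subunit, with 189 ± 119 CPM per kb (SD, n = 3). Of the 27 genes edgeR called 0 between aversive and mock libraries (3 at an unadjusted p under 0.05, and 0 by DESeq2, beside 1968 and 1485 of all genes), 3 were lower in appetitive than in mock and 4 lower in appetitive than in aversive libraries, beside 1.98% and 1.8% of all tested genes called. In these 2 comparisons DESeq2 called 13 and 8 of the 27 (4813 and 3996 of all 53379 genes). In edgeR 13 and 9 had an unadjusted p under 0.05 (4696 and 3941 of all 19754 tested genes).

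Slc31a1, the copper importer, fell from 2010, 3589 and 9031 counts in mock and 3234 and 1174 in aversive libraries to 5 and 6 in appetitive libraries, with a log2 fold change of -8.53 ± 1.21 against mock (adjusted p = 0.0296) and -8.03 ± 1.20 against aversive libraries (adjusted p = 0.0241). Steap2, a metalloreductase, had 156, 159 and 1228 counts in mock, 97 and 731 in aversive and 0 in both appetitive libraries, at least 53.5-fold and at least 49.8-fold lower (adjusted p = 0.0317 and adjusted p = 0.0271), the latter 74.8 without aversive 1 and 24.8 without aversive 3. Trpv4, a cation channel that senses osmotic change, had 254, 590 and 2208 counts in mock and 97 and 351 in aversive against 0 and 2 in appetitive libraries, with ratios of pooled counts of 417 (115 to 3444) and 102 (28.1 to 846) and an adjusted p = 0.0317 and adjusted p = 0.0361. These ratios are 249.7 and 61.2 without appetitive 1, and turn into bounds of 101.4 and 25.3 without appetitive 2. The fourth gene called against aversive libraries was Htr2c, a serotonin receptor, named after its values were seen, with 133 and 1258 counts against 0 in both appetitive libraries, at least 81.3-fold lower (adjusted p = 0.0428), or 128.7 without aversive 1 and 34.0 without aversive 3. Their calls are lost, with 0 genes called, when mock 1, mock 2, mock 3, neutral 1 or neutral 3 is left out, and those against mock also without neutral 2. All of these genes were also found in the neutral libraries, with Trpv4 at 582, 147 and 437 CPM. The median of the list was 0.16, -1.88 and -2.80, and the last was -1.50 when genes at 0 were put at their bound.

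The 12 identity genes, among them junction, keratin and transcription factor genes, summed to 131.6, 121.7 and 288.9 CPM in mock, 383 and 327 CPM in aversive, 121.4 and 125.9 CPM in appetitive and 4201, 924 and 3153 CPM in neutral libraries. Every neutral library thus lay above all others, as for Ttr, and neutral 2 was again the lowest of its group. Msx1, a homeodomain factor, led with 419 ± 246 CPM per kb in neutral libraries (SD, n = 3), before Krt18, a keratin of simple epithelia, with 301 ± 222 and Cldn2, a tight junction protein, with 82.2 ± 60.8 CPM per kb. Cdh1, the cadherin of many epithelia, was at 0 in all 3 neutral libraries.

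Of these 12 genes edgeR called 0 between aversive and mock libraries (2 at an unadjusted p under 0.05, and 1 by DESeq2, beside 1968 and 1485 of all genes), and Krt18 and Vat1l were lower in appetitive libraries than in mock and in aversive libraries, where 1.98% and 1.8% of all tested genes were called. DESeq2 called 7 and 7 of the 12 there (4813 and 3996 of all 53379 genes). In edgeR 6 and 7 had an unadjusted p under 0.05 (4696 and 3941 of all 19754 tested genes). Both calls are lost, with 0 genes called, when mock 1, mock 2, mock 3, neutral 1 or neutral 3 is left out, and those against mock also without neutral 2. Krt18 had 150, 128 and 1249 counts in mock, 1083 and 2943 in aversive and 1 and 0 in appetitive libraries, with ratios of pooled counts of 417 (74.8 to 16490.3) and 1837 (329 to 72560) and an adjusted p = 0.0355 and adjusted p = 0.0253. The ratios are 167 and 737 without appetitive 2, the former is 199.99 without mock 3, and without appetitive 1 both turn into bounds, of 63.4 and 360.1. Vat1l had 357, 117 and 3465 counts in mock, 1483 and 608 in aversive and 0 in both appetitive libraries, at least 116-fold and at least 221-fold lower (adjusted p = 0.0367 and adjusted p = 0.0338). The former is 51.8 without mock 3, and the latter 62.2 without aversive 1 and 379 without aversive 3. Medians of the list were 1.03, -6.80 and -8.31, and with genes at 0 put at their bound the last 2 were -2.84 and -4.56.

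Partners of the members' products, their receptors and fellow carriers, had another distribution. Of 17 such genes 13 had enough counts to be tested, and edgeR called 0 in each of the 3 comparisons, beside 0%, 1.98% and 1.8% of all tested genes. At an unadjusted p under 0.05 there were 2, 4 and 4 of these 13 genes in aversive against mock, appetitive against mock and appetitive against aversive, and DESeq2 called 1, 2 and 4, beside 1968, 4696 and 3941 of all 19754 tested genes by the former and 1485, 4813 and 3996 genes by the latter. The most abundant was Lpar1, a receptor for the product of Enpp2 that oligodendrocytes carry, at 1528, 765 and 282 CPM in mock, 1094 and 77.2 CPM in aversive, 2158 and 359 CPM in appetitive and 49.5, 60.9 and 17.2 CPM in neutral libraries. Rbp4, whose product TTR binds, was at 0 in all 3 neutral libraries, as was Fgf23 in all 10 libraries. By pooled counts, Rbp4 in mock was 61.7 times its level in aversive libraries (16.9 to 513). Its level in aversive was 0.00109 times that in appetitive libraries (0.000132 to 0.00395). Both ratios rest on 0 counts in aversive 3 and at most 3 in aversive 1, and Rbp4 was not called. Per exon length the folate carriers Slc19a1 and Slc46a1, with 38.8 ± 21.7 and 26.3 ± 15.1 CPM per kb, and Stra6, a receptor for RBP4, with 14.8 ± 5.81 CPM per kb, were highest in neutral libraries (SD, n = 3).

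Markers of the other cells known to make Ttr were set beside it. The 7 hepatocyte markers summed to 0.0524 to 9.51 CPM in the 10 libraries, with Apoa1 as the most abundant gene and Fgb and Serpina1a at 0 in every library. The 7 markers of the retinal pigment epithelium, which also expresses Otx2 and Kcnj13, summed to 0.262 to 65.1 CPM, with Rlbp1 as the most abundant and Tyrp1 at 0 in every library. The sums were 60.1, 39.5 and 27.96 CPM in mock, 15.2 and 1.82 CPM in aversive, 65.1 and 0.262 CPM in appetitive and 39.2, 12.8 and 25.2 CPM in neutral libraries. For the 6 of these that were tested, the median log2 fold change of neutral libraries was -0.43 over mock and 3.04 over aversive libraries, with all 6 above 0 in the latter and 4 of 6 above 0 over appetitive libraries. The part of both cell types in the members' values was not tested.

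Ependymal markers overlapped between neutral and aversive libraries, with aversive 3, at 640.6 CPM, above neutral 2. They summed to 1126, 458 and 989 CPM in neutral and 29.2 and 171.5 CPM in appetitive libraries, where 12 and 6 of the 14 were at 0, and Rsph1 was at 239, 66.7 and 227 CPM in neutral and 0 in both appetitive libraries. Appetitive 2 lay above mock 1, mock 2 and aversive 1 in this sum. The median log2 fold change of the list was 1.80, -1.24 and -2.04 in aversive against mock, appetitive against mock and appetitive against aversive, beside 1.14, -3.35 and -3.90 over the members and -0.13, -1.45 and -0.48 over all tested genes. Foxj1, a transcription factor of cells with motile cilia, was at 95.1, 24.4 and 43.5 CPM in neutral and at 1.91, 1.93 and 28.2 CPM in mock libraries. Of the ependymal list Rsph1 was called lower in appetitive than in mock and than in aversive libraries, and of the endothelial list Tek was, beside 1.98% and 1.8% of all tested genes, and these calls are lost where 0 genes were called, without mock 1, mock 2, mock 3, neutral 1 or neutral 3 and, against mock, without neutral 2. Ependymal cells and choroid plexus epithelium adjoin each other in the ventricle wall, and the part of ependymal RNA in the members' values was not tested.

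Markers of other cells of the dissected tissue followed other orders, though neuron medians had the signs of the members' medians in the 3 tested comparisons. The median log2 fold change of the neuron list was 1.42 in aversive against mock, with 9 of 10 above 0, -2.17 in appetitive against mock and -3.25 in appetitive against aversive (-1.39 with genes at 0 put at their bound). All 8 oligodendrocyte markers had a log2 fold change above 0 in appetitive against mock, with a median of 1.72, and in appetitive against aversive, with a median of 1.48. The 8 astrocyte markers, led by Aldoc, summed to 15548, 6091 and 5254 CPM in mock, 5550 and 7288 CPM in aversive, 5182 and 3244 CPM in appetitive and 258, 730.2 and 377 CPM in neutral libraries, and the 8 microglia markers, led by C1qb, to 1532, 2155 and 9885 CPM in mock, 5460.3 and 2308 CPM in aversive, 3365 and 974 CPM in appetitive and 39.7, 342 and 278 CPM in neutral libraries. Both lists were lowest in the neutral libraries, and neutral 2, with the least Ttr of its group, had the most of both. Outside the neutral group both appetitive libraries had the lowest astrocyte sums. The 8 endothelial markers, led by Slc2a1, summed to 862, 3814 and 2088 CPM in mock, 1358 and 1135 CPM in aversive, 1531 and 249.6 CPM in appetitive and 180.2, 3131 and 1632 CPM in neutral libraries. They overlapped between all groups. The part of these cells in the members' values was not tested.

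Fibroblasts and blood cells, which the vascular core of the choroid plexus also holds, were read last, and the labels name a step to remove red blood cells before sorting. The 8 fibroblast markers, led by Dcn, summed to 78.8, 112.6 and 74.4 CPM in mock, 145.9 and 120.8 CPM in aversive, 3.83 and 7.23 CPM in appetitive and 22.8, 173.9 and 73.7 CPM in neutral libraries, and the 5 red blood cell markers, led by Hbb-bs, to 338, 2290 and 439 CPM, 773 and 219 CPM, 628 and 98.6 CPM and 2.21, 59.7 and 11.4 CPM in the same order. Fibroblast markers were thus lowest in the appetitive libraries, like Calml4 and Kl, and red blood cell markers were lowest in the neutral libraries. The fibroblast median log2 fold change was -4.76 in appetitive against mock, with 8 of 8 below 0. In appetitive against aversive it was -5.29, with 7 of 8 below 0, and in aversive against mock -0.63. The members' medians were -3.35, -3.90 and 1.14 in the same order. By edgeR 0 neuron, astrocyte, microglia, oligodendrocyte, fibroblast, hepatocyte, retinal pigment epithelium or red blood cell markers were called in the 3 tested comparisons, while a list had at most 5 at an unadjusted p under 0.05 and at most 4 by DESeq2. Of all tested genes 0%, 1.98% and 1.8% were called, and 1968, 4696 and 3941 had such a p. DESeq2 called 1485, 4813 and 3996 of the 53379 genes given to it. In the appetitive libraries Dcn was at 1.41 and 0 CPM and in the neutral libraries at 0, 0.150 and 0 CPM. The part of these cells in the members' values was not tested.

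**Figure D3:**
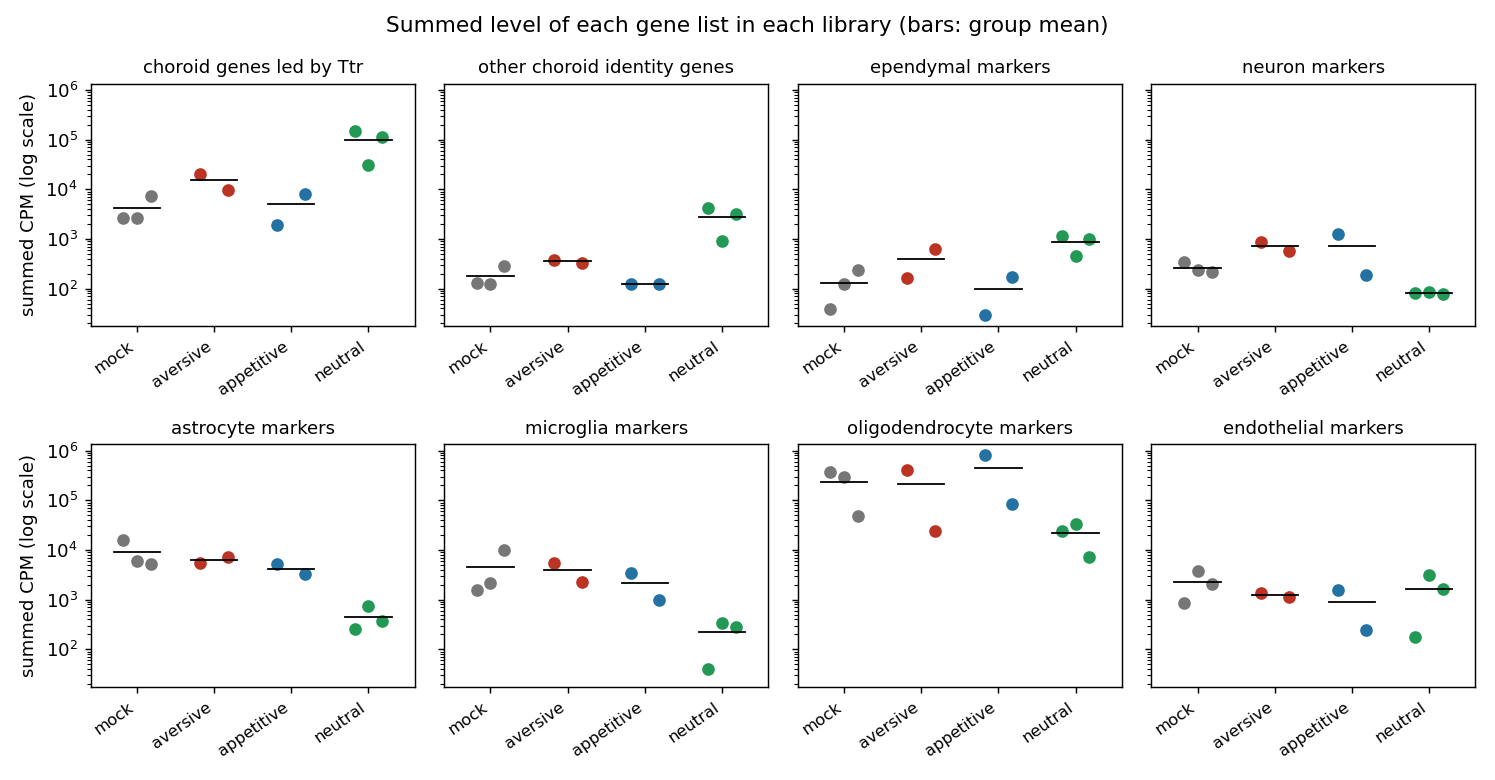
Each panel gives the summed level of 1 list of genes in each library, in CPM on a log scale, against its group, with bars at the group means. The members and the other identity genes are highest in the 3 neutral libraries, with sums of 148123, 31082 and 112901 CPM for the members, and astrocyte and microglia markers are lowest there.

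Genes whose level followed Ttr most closely over the 10 libraries were ranked by Pearson's r on log2 CPM, as a description. The 3 neutral libraries, high in Ttr, share a kit, so r over the other 7 libraries is given beside it. Fam122a came first with 0.985, before Mfrp with 0.977, a membrane protein on the identity list, Crb3 with 0.976, a protein of apical junctions, Dnaaf3 with 0.974, a dynein assembly factor of motile cilia, and Lgals1 with 0.964, a galectin. Kcnj13 was sixth with 0.962, before Gm16090, Frmpd1os, Atp2b3, a calcium pump, and 2900040C04Rik, with 0.962, 0.956, 0.956 and 0.955. Gm16090 is annotated as an antisense gene just before the start of Ttr, on the other strand, and strand was ignored in counting. Over the other 7 libraries r was 0.94 in Fam122a, 0.90 in Mfrp, 0.93 in Crb3, 0.93 in Dnaaf3 and 0.82 in Lgals1. It was 0.89 in Gm16090, 0.81 in Frmpd1os, 0.79 in Atp2b3 and 0.88 in 2900040C04Rik. Places by this r ran from 9 in Fam122a to 275 in Atp2b3, with Kcnj13 at 61.

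Of the other members Enpp2 had place 22, Folr1 61, Calml4 128, Clic6 334, Kl 438, Aqp1 515, Otx2 864 and Slc4a5 1248 of 19753 genes. Over the 7 libraries outside the neutral group r with Ttr was 0.88 in Kcnj13, 0.84 in Enpp2, 0.76 in Kl, 0.75 in Folr1, 0.61 in Clic6 and 0.58 in Calml4. It was 0.21 in Slc4a5, 0.05 in Otx2 and -0.09 in Aqp1, so these genes did not follow Ttr there. The median r over the 10 libraries was 0.85 in the secreted list, 0.83 in the identity list, 0.72 in the transport list and 0.71 in the ependymal list, and -0.77, -0.72, -0.70 and -0.31 in the astrocyte, microglia, oligodendrocyte and neuron lists. It was -0.81 in the red blood cell, -0.19 in the endothelial, -0.10 in the fibroblast, 0.02 in the hepatocyte, 0.05 in the retinal pigment epithelium and 0.15 in the partner list, and 0.09 over all tested genes. These medians include the neutral libraries with their own kit.

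Promoters were read where the RefSeq table of GRCm38.p6 has an entry, which was the case for Kcnj13, Kl, Aqp1, Slc4a5, Calml4 and Otx2, with 9 promoters in all, and Ttr, Folr1, Clic6 and Enpp2 were not matched. In the 250 bases before each start, the homeodomain core TAATCC, which OTX proteins bind, was found on either strand in 1 of these 9 promoters and in 6.25% of all 32841 promoters. The match lies 211 bases before 1 of the starts of Otx2 itself, in a stretch that overlaps an annotated exon and UTR of Otx2. The TATA box, TATAAA on the strand of the gene, was found in 7.59% of all promoters. Among the members, 1 promoter of Otx2 held it 192 bases before a start, and that of Kcnj13 29 bases before its start. Kcnj13 is the member that followed Ttr most closely, and its stretch around the TATA box is shown for that, from chr1:87394730-87394798 on the minus strand within the gene Gigyf2, with the TATA box in capitals.
Kcnj13: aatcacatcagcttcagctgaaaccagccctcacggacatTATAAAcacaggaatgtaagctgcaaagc
A match to these letters is a description and not a binding site, and no match says only that the letters are not in this window.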

How the data were processed

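RNA-seq counts of 10 libraries were used. The authors mapped reads with STAR to mm10, counted them per Ensembl gene with featureCounts, ignoring strand, and deposited raw counts for 53379 genes per library. Of these identifiers 53274 were matched to GENCODE M21, which gave symbols, positions and exon lengths. Depth was 16968588 to 67650693 counts per library. Reads were not used here.

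The test was edgeR 4.0.16's quasi-likelihood F test, run in R 4.3.3. TMM factors ran from 0.480 to 1.45, filterByExpr kept 19754 genes, and 1 quasi-likelihood model of 4 groups was fitted to the 10 libraries. P-values are two-sided and adjusted over all tested genes by Benjamini-Hochberg, and genes were called at an adjusted p under 0.05. Standard errors were derived from the F statistics. A fold against a group with all libraries at 0 is a bound against 3 counts per library, and for groups with 1 to 3 counts per library at most the ratio of pooled counts is given. Likeness used log2 of CPM plus 1. Python 3.11.15, pandas 2.3.3, numpy 2.4.6 and scipy 1.17.1 made the tables.

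Named genes were all members, the most abundant gene of each marker list, the first gene of each library, the 10 genes most like Ttr and, from each choroid or partner list, up to 3 called genes per direction and the 3 highest per exon length in neutral libraries. This rule named 1 more gene, which is not used here other than in sums and totals. Other names, such as Foxj1, Htr2c and genes at 0, were chosen after their values were seen. Members and lists were chosen with earlier results of these data known.

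Alternatives were DESeq2 1.42.0 on the 10 libraries and on the groups compared, its size factors or library totals in edgeR, scaling without the choroid plexus lists, no filter on counts, a minimum of 10 counts in each library, the 7 libraries of 1 kit, the groups compared alone, a block for the replicate number, the study's threshold (adjusted p under 1e-05 and over 4-fold) on edgeR's p-values, and leaving out each library. The study's threshold on DESeq2's p-values was added after seeing the data. DESeq2 was run on all 53379 genes, without edgeR's filter. Bounds and ratios without a library keep the scaling of all 10 libraries. The steps were tested on simulated data.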

Additional observations from a re-analysis of the deposited data

How the results depend on the processing

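Counts called at an adjusted p under 0.05 are given for aversive against mock, appetitive against mock and appetitive against aversive, in this order, as members and all genes; edgeR on all 10 libraries gave 0, 1 and 1 members and 0, 391 and 356 genes. With DESeq2's size factors 0, 260 and 302 genes were called, and members kept their counts, as with library totals (0, 390 and 282 genes) and with scaling without the choroid plexus lists. With no filter there were 1, 3 and 7 members and 10, 1124 and 1270 genes. With at least 10 counts in every library, which left 7, 2 and 2 members to test, 0 members and 0 genes were called in each. DESeq2 on 10 libraries called 1, 4 and 5 members and 1485, 4813 and 3996 genes, and on the groups compared 2, 4 and 2 members and 2944, 5579 and 1646 genes. With edgeR on the groups compared alone there were 0, 2 and 0 members and 0, 3585 and 0 genes. The 7 libraries of 1 kit, the replicate number as a block, and the study's threshold on edgeR's p-values each gave 0 members and 0 genes in all 3. The same threshold on DESeq2's p-values from 10 libraries, an alternative chosen after seeing the data, gave 0, 1 and 1 members and 259, 814 and 872 genes. Where edgeR called none, 377 to 3322, 624 to 5052 and 534 to 3890 genes had an unadjusted p under 0.05. Leaving out each library in turn gave 0 to 0, 0 to 4 and 0 to 4 members and 0 to 0, 0 to 1800 and 0 to 1460 genes. Apart from the members lost to the stricter filter, the cause was not tested.

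The labels do not say that replicate numbers pair libraries across groups. Residuals of the 12 pairs with the same number had r from -0.0764 to 0.201, with 3 over 0.1, and those of the 25 other pairs from -0.159 to 0.159, with 1 over 0.1, and 6 of 10 libraries matched their own number best. In a group of 2 libraries the residuals mirror each other, so r with 1 is the negative of r with the other. Pairs with the aversive or appetitive group are thus not separate evidence on pairing. With the number as a block Calml4 had an adjusted p = 0.107 in appetitive against mock and an adjusted p = 0.126 in appetitive against aversive. The log2 fold changes of the members in neutral over mock libraries kept their sign in all 30 values under other scalings and all 100 with a library left out. Of these, 2 moved by more than the spread between replicates, to 3.63 in Kl and 6.14 in Aqp1. In the appetitive group members with 0 to 3 counts give bounds or wide intervals, and the cause of these low counts was not tested.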
